A study of Mus musculus with 2 samples.

Results

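The 10 genes described here encode transcription factors of the AP-1 and BATF group: Fos, Fosb, Fosl1 and Fosl2, Jun, Junb and Jund, Batf and Batf3, and Bach2. They were taken by gene symbol from the deposited gene table, and all 10 were found among its 55246 loci. The study sequenced RNA of regulatory T cells (Treg cells, suppressive CD4 T cells defined by Foxp3) isolated from the lamina propria of the colon, the tissue layer beneath the gut epithelium. It compared wild-type mice (WT) with mice whose Foxp3 lacks exon 2 (Exon2KO in the sample labels, Foxp3∆2 in the series' text). Both groups were female, no other allele, agent or treatment is given for either, and age, sorting scheme and pooling of animals are not given in the labels. Each genotype is represented by 1 library, so no difference below can be set against a spread between samples.

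AP-1 factors are basic leucine zipper (bZIP) proteins that bind DNA as pairs. A Fos protein needs a Jun partner, whereas Jun proteins can also pair with each other. In T cells the genes of this group respond to antigen receptor and MAP kinase signals, and AP-1 acts together with NFAT at cytokine genes. Batf and Batf3 are short bZIP proteins without an activation domain that pair with Jun proteins and bind composite sites with IRF4 or IRF8. BATF is needed for T helper 17 differentiation and for tissue Treg cells of non-lymphoid organs. BACH2 is a bZIP repressor that competes for AP-1 sites in T cells and restrains effector genes.

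Gene counts summed to 16281133 reads in WT and 15412425 in Exon2KO. Where no read was counted, 3 reads set the limit, which is 0.191 CPM in WT and 0.188 CPM in Exon2KO (CPM, reads relative to the TMM-scaled library size). Reads copied by PCR and carrying no molecular identifier do not each stand for a molecule, so intervals and limits here cover counting error only. The T cell genes Cd3e (5154 reads in WT, 5262 in Exon2KO) and Cd4 (4593 and 5367) and the Treg gene Foxp3 (6991 and 20946) were present in both libraries. The Foxp3 count was higher in Exon2KO. Other Treg genes did not share a direction, with Ctla4 higher (79358 and 132229 reads, log2 ratio 0.71) and Il2ra lower (2968 and 2370, -0.35). Of the 15 T cell genes, 3 had a log2 ratio above 0, Cd3e and Cd4 among them, and 12 below 0. Gene-level reads do not show exon 2 by itself, so the Foxp3 count is no check of the genotype label. Genes of other cells were present too. Of 15 epithelial genes 13 were more than 2-fold higher in Exon2KO and 0 more than 2-fold lower. Over all loci with at least 10 reads these shares were 9.38% and 8.14%. Of the 15 genes, 14 had a log2 ratio above 0. The exception was Epcam, with 782 and 609 reads, at -0.39 (95% counting interval -0.54 to -0.23). The 15 genes summed to 96.0 CPM in WT and 512 CPM in Exon2KO, of which Epcam was 49.8 and 38.1 CPM. The 10 B and plasma cell genes summed to 62489 and 53306 CPM and the 16 myeloid and dendritic genes to 260 and 269 CPM. The 12 stromal and endothelial genes summed to 82.1 and 78.8 CPM, of which Pecam1 was 58.4 and 52.2 CPM. Of the 11 stromal and endothelial genes with at least 10 reads, 7 had a log2 ratio above 0 and 4 below. The highest were Cdh5 (0 and 15 reads) and Vwf (5 and 31), and the lowest was Des (20 and 7). Among the myeloid and dendritic genes, Cst3 alone was at 198 CPM in WT and 202 CPM in Exon2KO. Lyz2 had 317 and 405 reads, Cd68 168 and 243, Cd14 122 and 116, and Tyrobp 88 and 67. Itgax was at 0 in both libraries, and Adgre1 had 1 and 2 reads. Of the 13 genes of this list with at least 10 reads, 4 had a log2 ratio above 0 and 9 below. Fabp2 and Aqp8 of the epithelial list were at 0 in WT. AP-1 genes are active in many cell types, and the part of these other cells in the values below was not tested.

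The coding transcripts of Jun, Junb and Jund have 1 exon each in GENCODE M21 (mouse build GRCm38), that of Fos has 4 and that of Batf has 3. The promoter of Jun is shown because it holds TGACATCA, a sequence known as a site for Jun pairs and Jun-ATF pairs, and the promoter of Batf because Batf was the member with the largest difference at high read counts. Each window runs from 250 bases before to 50 bases after the RefSeq start (GRCm38.p6), 5′ to 3′ along the gene's strand, and the capitals mark TGACATCA.

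Jun, chr4:95052173-95052472, minus strand: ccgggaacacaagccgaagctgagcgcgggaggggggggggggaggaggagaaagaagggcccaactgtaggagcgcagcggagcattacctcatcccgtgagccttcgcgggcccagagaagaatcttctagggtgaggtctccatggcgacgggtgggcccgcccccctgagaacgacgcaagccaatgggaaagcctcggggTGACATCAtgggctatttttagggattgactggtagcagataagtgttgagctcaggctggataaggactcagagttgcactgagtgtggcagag

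Batf, chr12:85686470-85686769, plus strand: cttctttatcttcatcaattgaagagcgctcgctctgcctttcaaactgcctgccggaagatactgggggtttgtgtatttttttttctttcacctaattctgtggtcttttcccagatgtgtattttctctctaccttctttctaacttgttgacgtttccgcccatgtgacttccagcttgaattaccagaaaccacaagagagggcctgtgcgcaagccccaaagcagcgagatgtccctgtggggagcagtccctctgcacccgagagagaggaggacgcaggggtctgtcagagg

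The sequences TGANTCA (the AP-1 site), TGACGTCA (the cyclic AMP response element) and TGACATCA were searched on both strands. Their letters differ, so no stretch matches more than 1 of them from the same first base. RefSeq promoters were matched by symbol for 9 of the 10 members. The RefSeq start lies 179 kb from the deposited gene start for Bach2, 1.21 kb for Jund, 0.671 kb for Fosl2 and 0.567 kb for Batf3, so these windows are not at the deposited starts. For the other 5 it lies within 51 bases. Among these 9 windows the only match was TGACATCA in Jun, which starts 45 bases before the RefSeq start. Of all 32851 promoter windows, 7.81% hold TGANTCA, 1.79% hold TGACGTCA and 3.62% hold TGACATCA. The shorter TGACG, which is contained in TGACGTCA, is present in Fos, Fosb, Junb and Batf and in 20.8% of all windows. The TATA sequence TATAAA is present in Fos and Junb and in 13.6% of all windows. A match is a description of letters in the window and says nothing of binding in these cells.

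The members differed in level by several orders of magnitude. Levels between genes are compared in FPKM, the authors' deposited reads per gene length and library size. Junb, the Jun protein most closely tied to BATF in T helper 17 cells, was at 4231 FPKM in WT and 4075 in Exon2KO and ranked 1 among the 1506 loci that the deposited table assigns to a transcription factor family, in both libraries. Fos followed at 689 and 707 FPKM, ranking 5 among these factors in both. In WT the order continued with Batf (327 FPKM), Jund (179), Jun (129), Fosl2 (27.4), Fosb (12.8), Fosl1 (1.19), Bach2 (1.10) and Batf3 (0.278).

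In Exon2KO the order of the first 3 was the same, but the gap between Fos and Batf widened from 2.10-fold to 3.80-fold, and Jun (159 FPKM) passed Jund (151). The gap of Jun over Jund in Exon2KO was 1.05-fold, with a 95% counting interval of 1.01 to 1.09. This change of order rests on the deposited gene lengths, since in reads Jun was above Jund in WT already (1.37 Jun reads per Jund read). Batf was at 186 FPKM, and its rank among transcription factors went from 6 to 13. Fosl1 and Bach2 did not differ in level beyond counting error in either library, at ratios of 1.08 (0.739 to 1.57, Fosl1 over Bach2 in WT) and 1.28 (0.893 to 1.83, Bach2 over Fosl1 in Exon2KO). All other neighbours in the order differed beyond counting error, apart from Batf3 in Exon2KO, which was listed at 0.

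**Figure D1:**
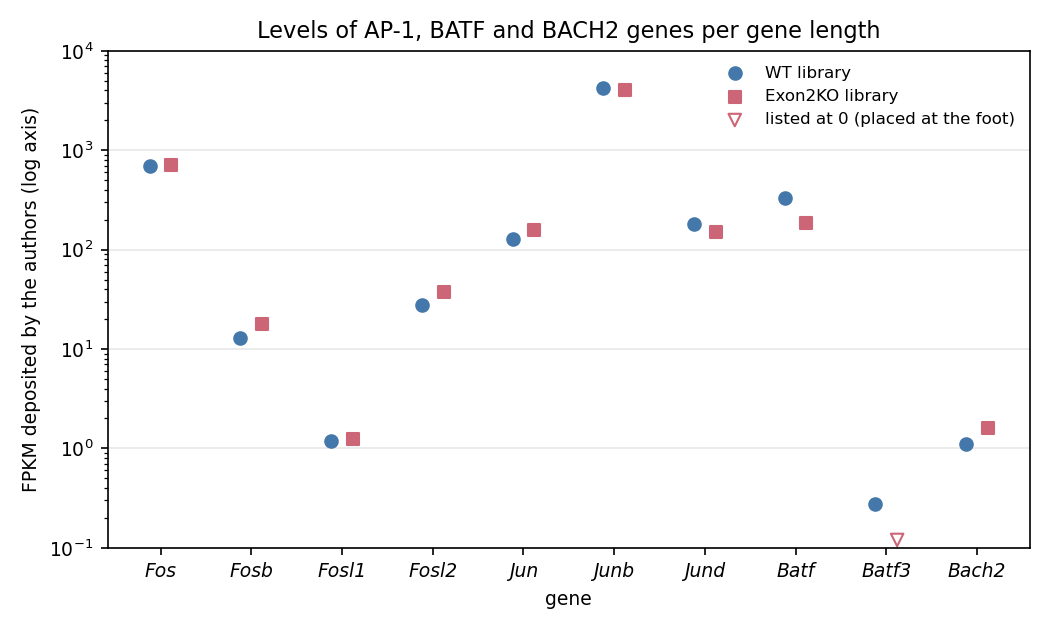
FPKM of each gene (y axis, log scale) in the WT library (circles) and the Exon2KO library (squares), 1 point per library; the open triangle marks Batf3, listed at 0 in Exon2KO. Junb is the highest in both libraries (4231 and 4075), and Batf is the abundant member whose points are farthest apart (327 and 186).

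Within each family a single gene held most of the level. Junb accounted for 93.2% of the summed FPKM of the Jun genes in WT and 92.9% in Exon2KO. Fos accounted for 94.3% and 92.6% of the Fos genes. The 10 genes together took 1.25% of all WT reads (95% Wilson interval 1.243 to 1.254) and 1.296% of Exon2KO reads (1.290 to 1.301). The direction of this total depends on the scaling, since the TMM-scaled levels sum to 12948 CPM in WT and 12489.9 CPM in Exon2KO.

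Batf3, with 7 reads in all, is given by its counts further on. Of the 9 members with at least 10 reads over both libraries, 0 were at least 2-fold higher and 0 at least 2-fold lower in Exon2KO. Over all 17363 loci with that many reads the shares were 9.38% higher and 8.14% lower, and over the 10906 with at least 100 reads they were 3.79% and 4.44%. Of the 8 members with at least 100 reads, 0 were past 1.5-fold higher and 1, Batf, was past 1.5-fold lower, against 8.48% and 10.2% of the loci. The median log2 ratio of the 9 members (Exon2KO over WT, TMM-scaled counts with a prior count of 2) was 0.06, beside 0.0035 for all loci with at least 10 reads. The 95% interval lay above 0 for 4 members, below 0 for 3 and held 0 for 2. Such intervals left out 0 for 56.3% of all loci with at least 100 reads, so leaving out 0 is common in these libraries.

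**Figure D2:**
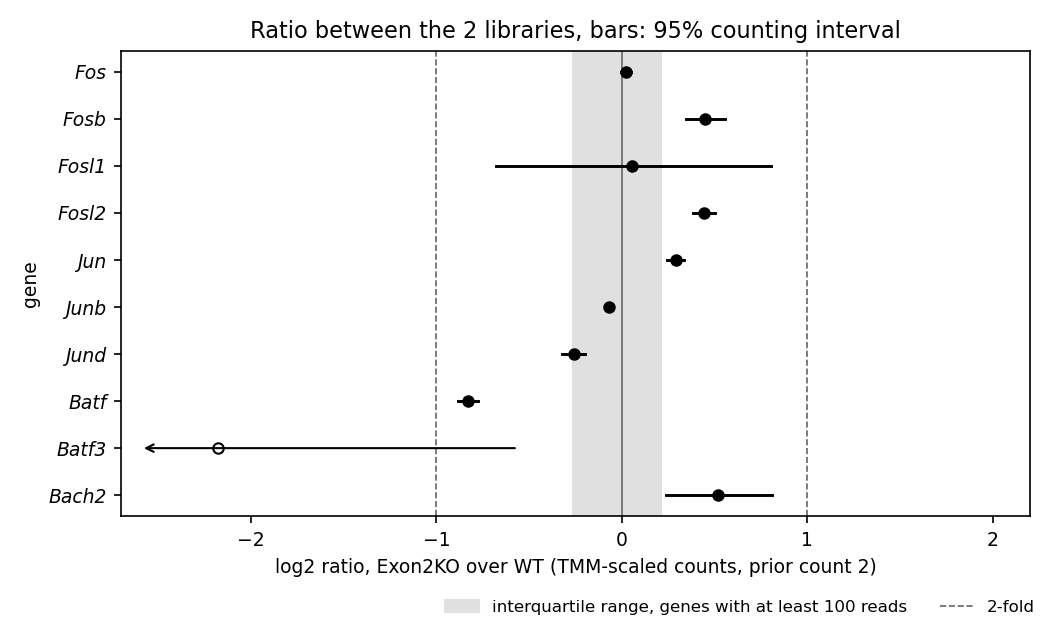
Log2 ratio of each gene between the Exon2KO and WT libraries (x axis) with its 95% counting interval (bars, no spread between samples), the interquartile range of loci with at least 100 reads (grey) and 2-fold lines (dashed). Batf sits at -0.83, Bach2, Fosb and Fosl2 between 0.44 and 0.52, and the open point with an arrow is Batf3, with 0 reads in Exon2KO and no lower limit, whose plotted position depends on the prior count.

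Batf (ENSMUSG00000034266, chromosome 12, 85686669 to 85709087, plus strand, GRCm38) was counted 7261 times in WT and 4159 times in Exon2KO. These are 463 CPM (counting interval 452 to 473) and 260 CPM (252 to 268), and the intervals do not overlap. The log2 ratio was -0.83 (-0.89 to -0.78), a 1.78-fold lower level in the Exon2KO library. Of all loci with at least 100 reads, 5.94% had a ratio as low as that of Batf or lower. For Batf the authors' deposited table lists a log2 fold change of -0.83 and an adjusted p-value of 0.353, which with 1 library per genotype has no spread between replicates behind it. The 15 T cell genes given beside it had a median of -0.30, or -0.19 with total counts. Of these genes 1 was past 2-fold lower, or 0 with total counts, beside 8.14% of all loci, and their part in the Batf ratio was not tested. In bulk RNA, fewer cells that express a gene and less RNA per cell cannot be told apart, for Batf and for every gene below.

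Batf3 (ENSMUSG00000026630, chromosome 1, 191097847 to 191108945, plus strand), which is best known as the factor of type 1 conventional dendritic cells, had 7 reads in WT and 0 in Exon2KO. Its 7 reads are below the minimum of 10. The upper 95% limit of the ratio from counting error alone was 0.681, which is 1.47-fold lower. This limit comes from the split of the 7 reads between the libraries. Setting Exon2KO at the limit of 3 reads used above would give 2.38-fold lower, without the counting error of the WT reads. The dendritic cell markers given beside it were Xcr1 with 184 and 185 reads, Clec9a with 3 and 0, Flt3 with 16 and 22, Zbtb46 with 548 and 140, Cadm1 with 8 and 0, Wdfy4 with 14 and 25 and Tlr3 with 1 and 6. These 7 genes did not share a direction. Their part in the Batf3 count was not tested.

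Irf4 and Irf8 encode the partners of BATF at composite sites, and the 2 went opposite ways. Irf4 counts were 773 for WT and 1432 for Exon2KO, with a log2 ratio of 0.86 (0.74 to 0.99). Irf8 had 641 and 421 reads, at -0.63 (-0.81 to -0.45). Neither was past 2-fold. Batf was thus lower and Irf4 higher in the Exon2KO library. There were 9.39 Batf reads per Irf4 read in WT and 2.90 in Exon2KO, a log2 change of -1.69 (-1.83 to -1.56) that library scaling cannot alter. Relative to Junb, its Jun partner, Batf differed by -0.76 on the log2 scale (-0.82 to -0.71), from 0.0473 to 0.0279 reads per Junb read.

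Of the Jun genes, Junb had the smallest ratio in size. Junb (chromosome 8, 84974484 to 84978718, minus strand) was counted 153539 times in WT and 149169 times in Exon2KO, or 9783 and 9330 CPM. The log2 ratio of Junb was -0.07 (-0.08 to -0.06) with TMM scaling and 0.04 with total counts, so its direction depends on the scaling. Junb shares 173 exonic bases with Prdx2 on the other strand, a gene with 2473 and 2545 reads, far fewer than Junb.

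Jun (chromosome 4, 95049034 to 95052222, minus strand) was counted 6473 times in WT and 8064 times in Exon2KO, at 0.29 (0.24 to 0.34) on the log2 scale. Jund (chromosome 8, 70698949 to 70700616), the Jun gene that is expressed most steadily in resting cells, had 4720 and 4015 reads, at -0.26 (-0.32 to -0.20). Jun and Jund thus differed in opposite directions, under every scaling tried. Jun reads per Jund read went from 1.37 in WT to 2.01 in Exon2KO, a log2 change of 0.55 (0.47 to 0.63). The antisense genes that share exons with them had few reads, with 20 and 15 for Junos and 0 in both libraries for Gm11175.

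Among the Fos genes, Fos itself (chromosome 12, 85473890 to 85477273) reached 25557 reads in WT and 26446 in Exon2KO, or 1628 and 1654 CPM. The log2 ratio was 0.02 (-0.002 to 0.05), and no difference was detectable at this depth with TMM scaling. With total counts the ratio was 0.13, which follows the shift of 0.10 that this scaling gives to the median of all loci.

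Fosb and Fosl2 were both higher in the Exon2KO library by similar amounts. Fosb (chromosome 7, 19302696 to 19310051), an immediate early gene like Fos, had 1262 and 1756 reads, at 0.45 (0.34 to 0.56). Fosl2 (chromosome 5, 32135801 to 32157842), which encodes Fra-2, had 4187 and 5795 reads, at 0.44 (0.38 to 0.50). Relative to Fos, Fosb reads differed by 0.43 (0.32 to 0.53) and Fosl2 reads by 0.42 (0.36 to 0.48) on the log2 scale. Of all loci with at least 100 reads, 12.1% had a ratio as high as that of Fosb and 12.4% as high as that of Fosl2. Fosl1, which encodes Fra-1, had 32 and 34 reads, at 0.06 (-0.68 to 0.80), an interval that includes differences of more than 1.5-fold in either direction. Ccdc85b, on the other strand with 153 and 108 reads, lies 844 bases from Fosl1 in the deposited coordinates, whereas the longer gene models of GENCODE M21 share 1163 exonic bases.

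Bach2 (ENSMUSG00000040270, chromosome 4, 32238804 to 32586108) was low in both libraries, with 173 reads in WT and 253 in Exon2KO. These are 11.02 CPM (9.44 to 12.8) and 15.8 CPM (13.9 to 17.9), which do not overlap, and the log2 ratio was 0.52 (0.24 to 0.81). The antisense gene Bach2os, which shares 537 exonic bases with Bach2, had 3 and 28 reads. Whether strand was used in counting is not stated, so reads in the shared sequence cannot be assigned to either gene. Bach2 per Batf read went from 0.0238 in WT to 0.0608 in Exon2KO, a log2 change of 1.35 (1.07 to 1.64).

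**Figure D3:**
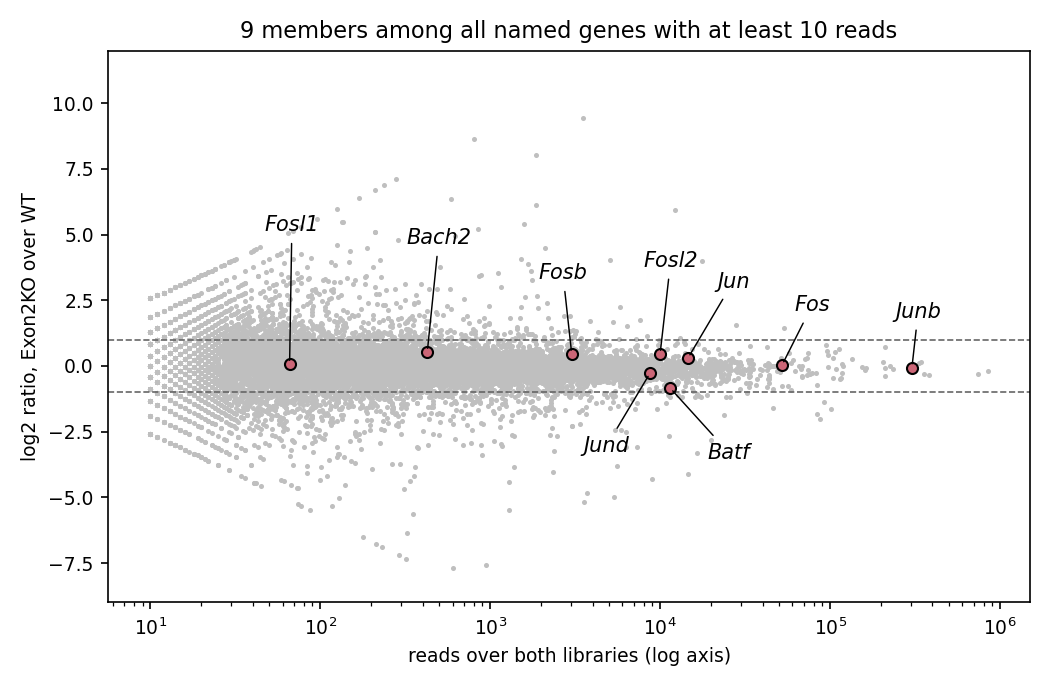
Reads over both libraries (x axis, log scale) against the log2 ratio (y axis) for the named genes with at least 10 reads (grey) and the 9 members with that depth (red); dashed lines mark 2-fold. All 9 lie between the 2-fold lines, with Batf the lowest at -0.83 and Bach2 the highest at 0.52.

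Fos, Jdp2 and Batf lie in this order within a stretch of chromosome 12, with Batf 209 kb from Fos and 46.8 kb from Jdp2. Jdp2 encodes a bZIP protein that pairs with Jun proteins and represses AP-1 targets. Jdp2 was counted 194 times in WT and 84 times in Exon2KO, at a log2 ratio of -1.21 (-1.62 to -0.86), past 2-fold. The 3 neighbours thus differed in their ratios, at 0.02 for Fos, -1.21 for Jdp2 and -0.83 for Batf. Of the other protein-coding genes within 300 kb of Batf that had at least 100 reads, Erg28 was at 0.03 (-0.13 to 0.20) and Ttll5 at -0.56 (-1.04 to -0.12). Atf3, a stress-induced bZIP gene 61.4 kb from Batf3, had 4039 and 2300 reads, at -0.84 (-0.91 to -0.76), nearly the ratio of Batf.

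Of 40 other bZIP genes with at least 10 reads, 4 were past 2-fold higher and 2 lower, with a median of -0.03. These counts are near the 9.38% and 8.14% of all loci and are no result about bZIP genes as a group. Beside Jdp2, those with at least 100 reads in a library were Maf, a factor of IL-10 and IL-17 producing T cells, with 2336 and 4853 reads (1.03, 0.96 to 1.10), and Hlf, of the PAR bZIP group, with 456 and 1020 reads (1.13, 0.97 to 1.297). Of the 10 genes for binding partners, 0 were past 2-fold in either direction, and the median was 0.11.

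Of 29 kinase, adaptor and regulator genes upstream of AP-1 with at least 10 reads, 2 were past 2-fold higher and 1 lower, with a median of -0.04. The shares over all loci were 9.38% and 8.14%. Malt1, a protease of the antigen receptor pathway, had 1420 and 2901 reads (1.00, 0.91 to 1.10). Mapk13, a p38 kinase gene, had 10 and 111 (3.21, 2.51 to 4.55). This is the direction of most of the epithelial genes given above, whose part was not tested. Map3k8, which encodes the kinase Tpl2, had 770 and 318 reads (-1.297, -1.50 to -1.11). Mapk9, the gene of the kinase JNK2, was at -0.04 (-0.19 to 0.11).

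Most immediate early genes and genes induced by tissue dissociation had ratios below 0. Of the 33 genes of this list, which leaves out the members, 28 had a log2 ratio below 0, or 24 with total counts, and the median was -0.43. Of these 33 genes 0 were past 2-fold higher and 4 lower, or 2 with total counts, beside 9.38% higher and 8.14% lower of all loci. The 4 were Nr4a2 (-3.23), Myc (-1.85), Klf2 (-1.08) and Hspa1a (-1.03). Beside that median, Fos stood at 0.02, Junb at -0.07 (0.04 with total counts), Jun at 0.29 and Fosb at 0.45. Of the other members with at least 100 reads, Batf at -0.83 and Jund at -0.26 were below 0, and Fosl2 at 0.44 and Bach2 at 0.52 above. Dusp1, a phosphatase gene that limits MAP kinase signals, had 38106 and 20759 reads (-0.90, -0.93 to -0.88), and Egr1 had 3818 and 3858 (-0.01, -0.08 to 0.05). The difference between the members and this list was not tested. Handling and the time to sorting are not given in the labels, and their part was not tested.

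Genes that BATF or AP-1 are known to act on in T cells differed widely in both directions. Of 34 genes with at least 10 reads, 10 were past 2-fold higher and 8 lower, beside 9.38% and 8.14% of all loci at that depth, and the median was 0.45. The list was chosen with earlier results of these data known, so these counts are no test of BATF or AP-1 action. Among genes with at least 100 reads in a library, the higher ones with the largest ratios were Il17a (5.94), Il17f (5.40), Il22 (2.50), Il23r (1.81) and Il10 (1.46). Lower ones were Ccr8 (-3.79), Il1rl1 (-3.09), Klrg1 (-3.08), Itgae (-2.64) and Gata3 (-2.51), which are genes of tissue Treg cells. The part of Batf in the higher and the lower ratios was not tested.

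Of the 23 genes that BACH2 is known to hold down, 2 were past 2-fold higher and 6 lower, beside 9.38% and 8.14% of all loci, and the median was 0.03. The higher count is near that share, and it was 0 among genes with at least 100 reads. Of these 6, 5 are the tissue Treg genes just named, and the sixth is Map3k8. Prdm1, which encodes BLIMP1 and is a classical BACH2 target, had 628 and 1052 reads, at 0.72 (0.57 to 0.86). A total of 15 genes stand in more than 1 of the lists, so their counts are not independent. The BACH2 list too was chosen with earlier results known, so its counts are no test of BACH2 action.

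**Figure D4:**
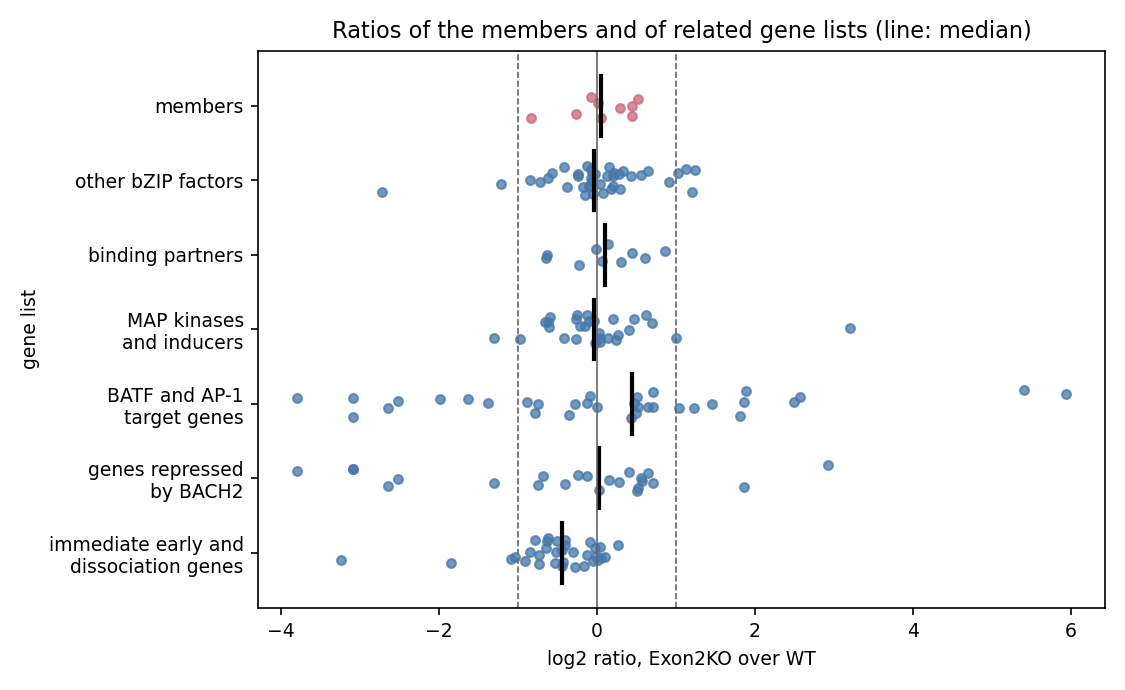
Log2 ratio (x axis) of each gene with at least 10 reads in the members (red) and in 6 related gene lists (blue), with the median of each list (black line) and 2-fold lines (dashed). The members spread from -0.83 to 0.52, the target genes from -3.79 to 5.94, and the median of the immediate early list is -0.43.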

How the data were processed

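RNA sequencing counts of 1 WT and 1 Exon2KO library were analysed. Per the submitters' processing notes, the build was mm10 and the tools were HISAT2 2.0.5, StringTie 1.3.3b, featureCounts 1.5.0-p3 and DESeq2 1.16.1, with no roles given. The strand setting and annotation release are not given in the sources used here. The deposited values are raw counts per gene, FPKM, a scaled count signal (not used here), and the authors' log2 fold change, p-value and adjusted p-value, per the file headers.

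Counts were scaled with TMM in edgeR 4.0.16 (factors 0.964 for WT and 1.04 for Exon2KO; R 4.3.3, Python 3.11.15, scipy 1.17.1). Since 1 library per genotype has no spread, edgeR's quasi-likelihood test could not be fitted, and no test that allows for the spread between samples was made. A ratio counts as past the fold at 2-fold or more, among genes whose reads in both libraries sum to 10 or more. Intervals of ratios are exact Clopper-Pearson intervals of the share of a gene's reads, converted to log2 without the prior count. Intervals of the change in reads of a gene relative to another, and of the gap between 2 genes in FPKM, use the normal approximation of the log ratio of counts. The script was tested on simulated data.

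The members and the 12 further gene lists were chosen with earlier results of these data known. From each list, up to 5 genes per direction past 2-fold with at least 100 reads in a library are named, beside defining markers. Other genes named (such as Irf4, Irf8, Atf3, Dusp1, Egr1, Prdm1, Mapk9 and neighbours) were chosen after their values were seen. GENCODE M21 gives identical coordinates for 9 of the 10 members, the exception being Fosl1. Of the lists, T cell genes (15 tested) had 0 past 2-fold higher and 1, Cd5, lower (median -0.30). The counts were 0 and 1 for myeloid and dendritic genes (13 tested) and 0 and 1 for type 1 dendritic genes (4 tested). They were 1 and 2 for B and plasma cell genes (9 tested) and 3 and 1 for stromal genes (11 tested). The shares of all loci were 9.38% and 8.14%. Alternatives in scaling, prior count, fold, read minimum and biotype, and a call by exact binomial test, were computed.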

Additional observations from a re-analysis of the deposited data

How the results depend on the processing

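None of the 9 members with at least 10 reads was past 2-fold under DESeq2 size factors, upper quartile, total counts or a call that adds the exact binomial test, and with a fold of 1.5 the count was 0 higher and 1 lower (Batf). A minimum of 1 read would add Batf3, with 7 and 0 reads, to those past 2-fold lower. The median of the members stayed within 0.05 and 0.16 on the log2 scale. Batf ranged from -0.83 to -0.72 over the scalings, prior counts and FPKM ratio, and Junb from -0.07 to 0.04, changing sign with total counts. No other member changed sign. Of 59 recomputed member values 8 moved outside their counting interval, 6 of them with total counts, which shift the median of all loci by 0.10. All loci past 2-fold, 1628 higher and 1413 lower, became 2922 and 2647 with a fold of 1.5, 2643 and 2844 with at least 1 read, 413 and 484 with at least 100 reads, and 962 and 934 for protein-coding genes, as fewer or more genes enter. Of 120 list counts 21 moved by over 1.5 times, most of them with a fold of 1.5 or the minimum of 100 reads, which change the genes counted. Total counts left 0 T cell genes, 0 myeloid genes and 2 early genes past 2-fold lower. The minimum of 100 reads left 0 myeloid genes and 1 B and plasma cell gene past 2-fold lower. It left 0 stromal genes in either direction, and 2 higher and 1 lower of the other bZIP genes. It also left 0 higher of the genes repressed by BACH2. With a fold of 1.5, 12 early genes were lower. Ratios of reads between genes do not depend on library scaling by construction. Depth limits Fosl1 (66 reads) and Batf3 (7). No paired analysis was possible because WT and Exon2KO are 1 library each, and for that reason none could be omitted.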
